A study of Homo sapiens with 32 samples.

Results

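The FASTK family comprises 6 human genes, FASTKD1, FASTKD2, FASTKD3, FASTKD5, FASTK and TBRG4, and their promoters were examined for chromatin accessibility before and shortly after degradation of ZNF143 was induced. The members were the counted windows whose centre lay within 1000 bp of a GENCODE transcript start of one of these genes on hg38. This rule found 13 windows of 212358 counted windows, with 2 at FASTKD1, 2 at FASTKD2, 2 at FASTKD3, 2 at FASTKD5, 3 at FASTK and 2 at TBRG4. All 13 passed the filter on low counts. FASTKD1 was selected on its fold change between these same libraries, a strong loss of accessibility at its promoter, so its change is described and not tested. The other 5 genes are comparators taken by family name.

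ATAC-seq reads accessibility through the transposase Tn5, an enzyme that inserts adapters where DNA is open. The cells were a single clone, HEK_CloneZD29, derived from the embryonic kidney line HEK293T. ZNF143, a zinc finger transcription factor that binds promoters, carries an inducible degron tag in it, and controls and treated cells share that tag. The counted libraries are 8 DMSO controls and 8 libraries from cells kept for 30 minutes in 50 nM dTAGV-1, a compound that recruits a ubiquitin ligase to the tagged protein. The treatment text of the labels calls the controls untreated, while their titles call them DMSO. No untagged line is among the labelled samples, and ZNF143 protein was not analysed here. The labels do not say whether the replicates are separate cultures, so p-values measure only the spread between these libraries.

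Library totals ran from 2275856 to 11418578 counts in DMSO and from 3373219 to 13671039 in dTAGV-1. Replicate 12 stood apart in both groups. Its signal was flatter, with 31.0% of DMSO counts and 37.8% of dTAGV-1 counts in the most accessible decile of windows, against up to 47.3% elsewhere. dTAGV-1 replicate 11 lay at 40.3%. Of the markers reported for the line, PAX2, SIX2, CDH2 and VIM had promoter windows between the 88.9 and 98.8 percentile of abundance. These percentiles are over all tested windows, and LHX1 had no such window. PTPRC, SPI1, CD3E and GATA1, all of blood, and ALB of liver had no tested promoter window, whereas MYOD1 of muscle had 2. On the same scale MYOD1 lay at the 81.6 percentile, not far below PAX2 at 88.9. The promoter window of ZNF143 measured 66.0 ± 14.6 CPM (normalised read count) in DMSO and 63.8 ± 11.2 in dTAGV-1 (SD, n = 8), a log2 fold change of -0.05.

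Proteins of the FASTK family are made in the cytosol, enter mitochondria and act there on RNA copied from mitochondrial DNA. They share a C-terminal RAP domain and influence how long mitochondrial transcripts last, how they are cut and how ribosomal RNA is assembled. Their genes lie in the nucleus, so their promoters are open to nuclear factors such as ZNF143, which is known for binding the promoters of many housekeeping genes.

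The sequence upstream of FASTKD1 is shown because it holds short sequences that the windows of its relatives lacked. It is the RefSeq promoter of GRCh38.p14 at chr2:169573876-169574115, read along the minus strand, on which the gene lies, and it ends just before the outermost annotated start.

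FASTKD1 upstream: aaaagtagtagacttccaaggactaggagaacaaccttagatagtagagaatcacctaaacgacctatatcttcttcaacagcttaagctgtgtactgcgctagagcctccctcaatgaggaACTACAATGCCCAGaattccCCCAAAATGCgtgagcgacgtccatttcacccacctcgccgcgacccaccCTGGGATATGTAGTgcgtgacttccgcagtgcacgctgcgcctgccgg

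Capitals mark 3 matches. The middle one is the ZNF143 core, searched as CCCA, any base, A or C, then ATGC on both strands. Within 200 bp of the centre, it occurs in 1.36% of the 41711 windows near protein-coding starts and in 1.40% of all windows. The other matches are a pair of half-sites, ACTACA, 3 bases of any kind, then CCCAG, which resembles the longer sequence that ZNF143 is known to bind. Its letters were chosen after this sequence was seen, and its CCCA is also how the core begins. The upstream pair reads with the gene and has its middle 121 bases before the main start. The downstream pair reads against the gene at 51 bases before the start, with 56 bases between them. The core has its middle 103 bases before the start, 6 bases from the upstream pair. At least 1 half-site pair occurs in 1.14% of windows near protein-coding starts, and at least 2 occur in 46 of those windows, or 0.11%. In the table of 35116 RefSeq promoters, 39 held at least 2 pairs, again 0.111%.

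**Figure D1:**
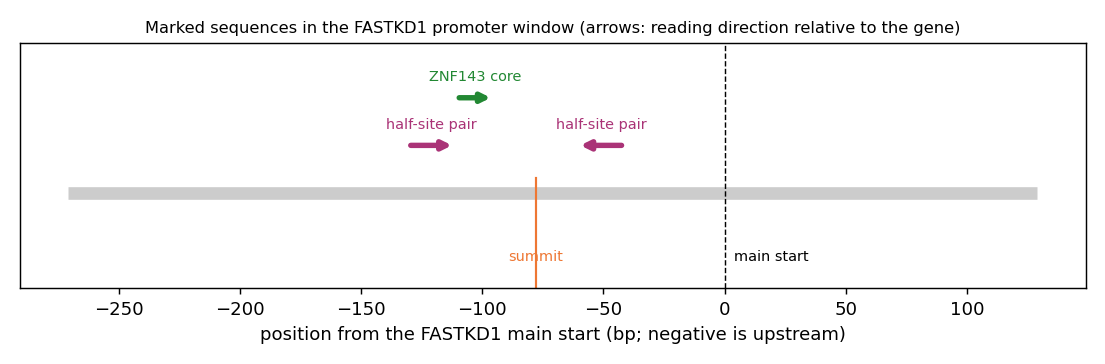
Position of the marked sequences in the main FASTKD1 window (grey bar) from the main annotated start, in bp, with arrows giving the reading direction relative to the gene and the summit of the deposited list as a line. The 2 half-site pairs lie at -121 and -51 and point toward each other, with the summit between them at -78 and the ZNF143 core at -103.

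The comparators held no core and no half-site pair in any of their 11 windows. To show how far they are from it, the stretch of each main comparator window with the most letters of the pair is given, with matching letters in capitals. Where stretches tied, the one nearest the window centre was taken. The downstream FASTKD1 pair comes first.
FASTKD1, chr2:169573910-169573923, plus strand: ACTACAtatCCCAG
FASTKD2, chr2:206765322-206765335, plus strand: ACcACgcagCCaAG
FASTKD3, chr5:7869021-7869034, minus strand: cCcACgacgCCCAG
FASTKD5, chr20:3159968-3159981, minus strand: ACaACgtcctCCAG
FASTK, chr7:151080931-151080944, minus strand: cCTcCgtggCCCcG
TBRG4, chr7:45111582-45111595, minus strand: AgTgCAcaaCaCAG
FASTKD1 matched all 11 fixed letters, which was set in advance because the letters were chosen after its sequence was seen. FASTKD2, FASTKD3, FASTKD5 and TBRG4 matched 8, and FASTK matched 7. Most promoters look like the comparators in this respect, since 52.7% of windows near protein-coding starts have a best match of 8 letters and 33.2% a best match of 7. The half-site ACTACA alone was present in the other FASTKD1 window, in 1 FASTKD2 window and in 1 FASTKD3 window, and it occurs in 10.1% of windows near protein-coding starts.

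The comparators carried other short sequences, looked for on either strand up to 200 bp from the centre. The main FASTKD3 window held CCAAT, the letters read by NFY, at 2 places, and GGGGCGGGG, a sequence of SP and KLF factors. The main FASTK window held CCAAT and GCCATNTT, a sequence of YY1. The main FASTKD5 window held CCGGAAGT, read by ETS factors. Among windows near protein-coding starts, CCAAT occurs in 32.3%, GGGGCGGGG in 19.5%, GCCATNTT in 6.67% and CCGGAAGT in 3.29%. None of the 13 windows held the NRF1 sequence GCATGCGC, which occurs in 2.77%. The main FASTKD1 window was also poorest in G and C among main windows, at 49.1%, against 54.4% at FASTKD2, 62.3% at both FASTKD5 and TBRG4, 69.1% at FASTKD3 and 71.6% at FASTK. Its ratio of observed to expected CpG was 0.74, against 0.82 to 1.02 in the main windows of the comparators. Their other windows ranged from 0.36 to 0.86 in this ratio and from 50.1% to 76.8% in G and C. The FASTKD2 window on its main start also had a ratio of 0.74, so a low ratio was not particular to FASTKD1.

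FASTKD1 encodes a mitochondrial protein known to limit the level of a transcript for a complex I subunit. Its main window, meaning the most accessible one of the gene, lay at chr2:169573736-169574136, between genes, with its centre 71 bp upstream of the main start and 61 bp from the nearest one. No other gene starts within 1000 bp of it. In DMSO its normalised read count (CPM, the count relative to the TMM-scaled library total) had a lowest value of 14.2 in replicate 12, a median of 25.6 and a highest of 28.8 in replicate 10. In dTAGV-1 the lowest value was 6.34 in replicate 9, the median 9.68 and the highest 11.9 in replicate 13. The groups did not overlap, and even the flat DMSO replicate 12 lay above the 8 dTAGV-1 libraries.

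The mean fell from 23.9 ± 4.66 to 9.51 ± 2.04 CPM (SD, n = 8 in each group). On the log2 scale the fitted change was -1.32 (SE 0.15), which leaves 40.0% of the DMSO signal. The values rest on 38 to 310 counts per DMSO library and 26 to 143 per dTAGV-1 library. Of 185040 tested windows 395 were called lower by edgeR's quasi-likelihood test, or 0.213%, and the main FASTKD1 window is the 1 member among them. In 0.0713% of tested windows all dTAGV-1 libraries lay below all DMSO libraries, as here. These values chose the gene, and nothing is read from the shares. Among the 395 lower windows it had the 87th largest loss, and the median log2 fold change of those windows was -0.95. Leaving out any 1 library moved its log2 fold change only between -1.38 and -1.25.

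**Figure D2:**
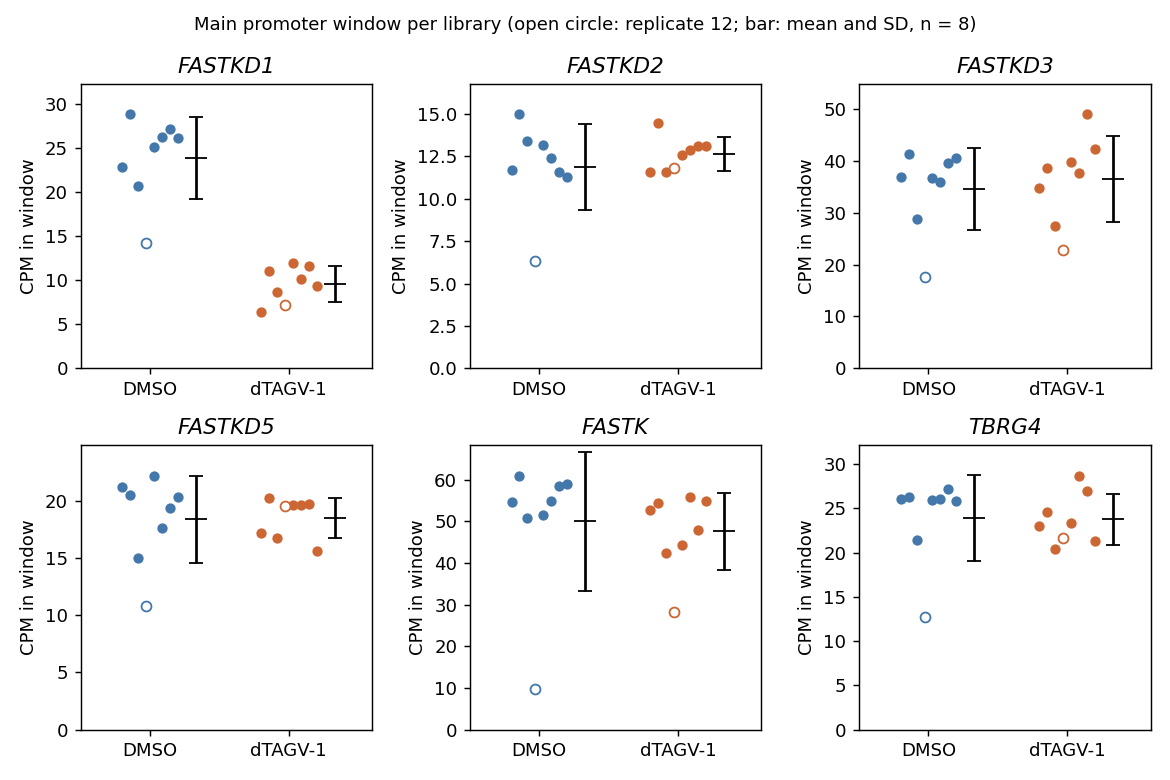
CPM in the main promoter window of each gene (y axis, from 0) for the 8 DMSO and 8 dTAGV-1 libraries, with replicate 12 as an open circle and the mean and SD as a bar. At FASTKD1 the dTAGV-1 libraries lie between 6.34 and 11.9 and the DMSO libraries between 14.2 and 28.8, whereas the groups overlap at the other 5 genes.

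The other FASTKD1 window, chr2:169573015-169573415, lay in an untranslated region with its centre 650 bp downstream of the main start and 721 bp from the centre of the first, with no shared bases. It measured 3.83 to 9.04 CPM in DMSO, with a median of 4.98, and 4.33 to 8.89 in dTAGV-1, with a median of 6.36. Its groups overlapped throughout their range. In log2 terms the groups differed by 0.17 (SE 0.17), within the error. Both windows belong to the contrast that picked the gene, and their difference was not tested. The deposited summit list for replicates 1 to 8 placed a summit at -78 from the main start, with a -log10 score of 744.8. It also placed 2 weaker summits, with scores of 94.4 and 98.5, in the downstream window. That list carries no value per library, so it shows that both windows were peaks there and says nothing of a change.

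None of the 11 comparator windows was called in either direction by edgeR's quasi-likelihood test, with an adjusted p of 1.0 in each, where 0.213% of all tested windows were lower and 0.00108% higher. At an unadjusted p of 0.05 there was 1, a FASTK window with a higher value, and DESeq2 called 0. Their log2 fold changes ran from -0.13 to 0.34 with a median of 0.02, against 0.01 over the 48342 tested windows within 1000 bp of any start. The groups overlapped in all 11. Of their 95% intervals, the one that reached lowest stopped at -0.45 and the one that reached highest at 0.79. The interval of the FASTK window with the unadjusted p under 0.05, 0.07 to 0.6, did not span 0. Changes within those intervals are not excluded, given the spread between these libraries. Without DMSO replicate 12 the main-window log2 changes were 0.01 at FASTKD2, -0.01 at FASTKD3, -0.07 at FASTKD5, -0.22 at FASTK and -0.1 at TBRG4, and none was called. That fit kept dTAGV-1 replicate 12. Without replicates 11 and 12 of both groups they were 0.05, 0.07, -0.11, -0.13 and -0.09 in the same order, again with none called.

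**Figure D3:**
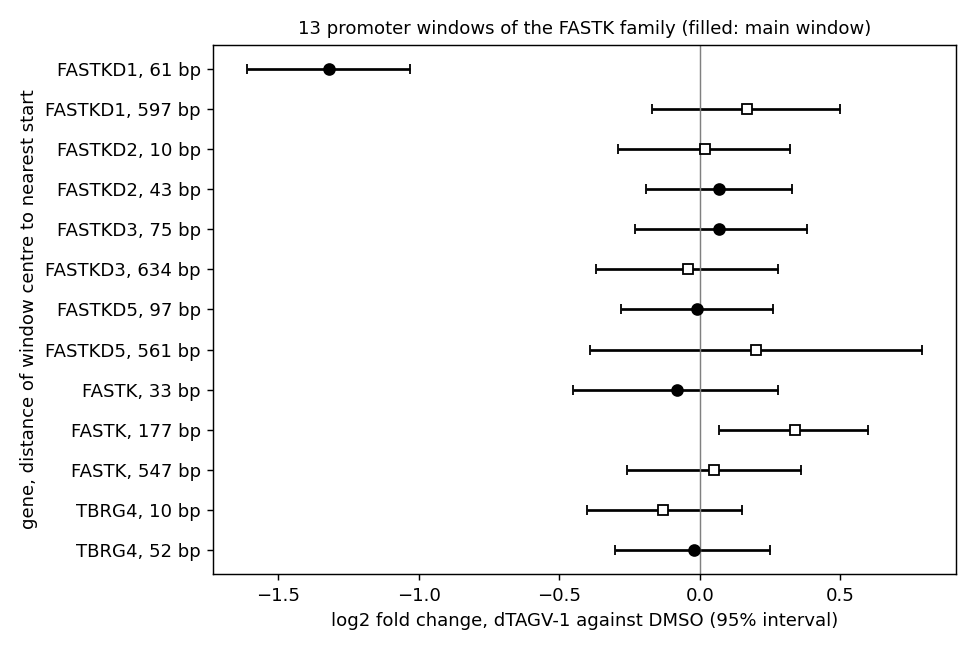
Log2 fold change of dTAGV-1 against DMSO for the 13 windows (x axis), ordered by gene and by the distance of the window centre to the nearest start (y axis), with 95% intervals from the edgeR fit and filled symbols for main windows. The main FASTKD1 window lies at -1.32, and the other 12 lie between -0.13 and 0.34.

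FASTKD2 is known for its part in the assembly of the large mitochondrial ribosomal subunit, and its loss causes a human encephalomyopathy. Its main window, chr2:206765114-206765514, has its centre 7 bp from a start of MDH1B, a gene on the opposite strand, so that its signal cannot be assigned to either gene. In DMSO it measured 6.36 CPM in replicate 12, with a median of 12 and a highest of 15. In dTAGV-1 it measured 11.6 to 14.5, with a median of 12.8, wholly within the DMSO range. Its fitted log2 change was 0.07 (SE 0.13). The second window, chr2:206765416-206765816, overlaps the first by 99 bp and lies on the main start of FASTKD2, its centre 288 bp from a start of MDH1B. It had 4.49 to 12.2 CPM in DMSO and 5.16 to 10.8 in dTAGV-1, with a log2 fold change of 0.02.

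FASTKD3 acts on several mitochondrial messages and starts beside MTRR, the reductase that keeps methionine synthase active, which is read in the opposite direction. The main window, chr5:7868912-7869312, has its centre 8 bp from a start of MTRR and 75 bp from a start of FASTKD3. It was the second most accessible of the family, with 17.6 to 41.4 CPM in DMSO and a median of 36.7. In dTAGV-1 it ranged from 22.8 to 49.0 with a median of 38.2, and 2 libraries exceeded the highest DMSO library. Its fitted log2 change of 0.07 (SE 0.16) lay within the error. A weak window at chr5:7869471-7869871, with a mean of 4.46 ± 0.935 CPM in DMSO and 4.42 ± 1.04 in dTAGV-1 (SD, n = 8), gave a fitted log2 difference of -0.04. Its centre lies in an untranslated region of MTRR, 432 bp from a start of MTRR and 634 bp from one of FASTKD3.

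FASTKD5 is needed to cut mitochondrial precursor RNAs at sites that no transfer RNA marks. Its main window, chr20:3159762-3160162, also covers a start of UBOX5, a gene for a ubiquitin ligase on the same strand, 86 bp from the centre. It measured 10.8 to 22.2 CPM in DMSO, with a median of 19.8, and 15.6 to 20.2 in dTAGV-1, with a median of 19.5. Once more the dTAGV-1 libraries lay inside the DMSO range. The fit gave a log2 change of -0.01 (SE 0.14). The second window, chr20:3152108-3152508, lies in an intron near an inner start and was the weakest of the 13, with 1.31 ± 0.486 CPM in DMSO and 1.52 ± 0.467 in dTAGV-1 (SD, n = 8). With 4 to 20 counts per DMSO library the fitted log2 change of 0.2 carried an SE of 0.3, and only large changes would be detectable there.

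FASTK, the gene that names the family, encodes a protein known to stabilize a mitochondrial message for a complex I subunit. Its main window, chr7:151080699-151081099, was the most accessible of the family. In DMSO it measured 9.72 CPM in replicate 12 and 50.7 to 61.0 in the other 7 libraries, with a median of 54.8. In dTAGV-1 it measured 28.3 in replicate 12, with a median of 50.4 and a highest of 55.8. In each group replicate 12 lay lowest, and the groups overlapped. Its fitted log2 change was -0.08 (SE 0.19), and -0.22 without DMSO replicate 12. A window downstream, chr7:151080119-151080519, had 9.35 to 16.8 CPM in DMSO and 13.1 to 19.6 in dTAGV-1, and 4 dTAGV-1 libraries exceeded the highest DMSO library. Its fitted log2 change of 0.34 (SE 0.13) gave an adjusted p of 1.0 in edgeR and did not pass the test. The third window, chr7:151081213-151081613, lies in a coding exon of TMUB1, with 16.3 ± 5.28 CPM in DMSO and 17.2 ± 2.88 in dTAGV-1 (SD, n = 8).

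TBRG4, also called FASTKD4, is known to keep several mitochondrial messages stable. Its windows, chr7:45111570-45111970 and chr7:45111831-45112231, overlap by 140 bp and so share counts. The main one, the first of these, had 12.7 to 27.2 CPM in DMSO, with a median of 26.0, and 20.4 to 28.7 in dTAGV-1, with a median of 23.2. The fit gave a log2 change of -0.02 (SE 0.14). The second had a median of 23.3 CPM in DMSO and 20.4 in dTAGV-1, with overlapping groups and a fitted log2 change of -0.13 (SE 0.14), the lowest among the 11 comparator windows. For neither window did the fitted change exceed its standard error.

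**Figure D4:**
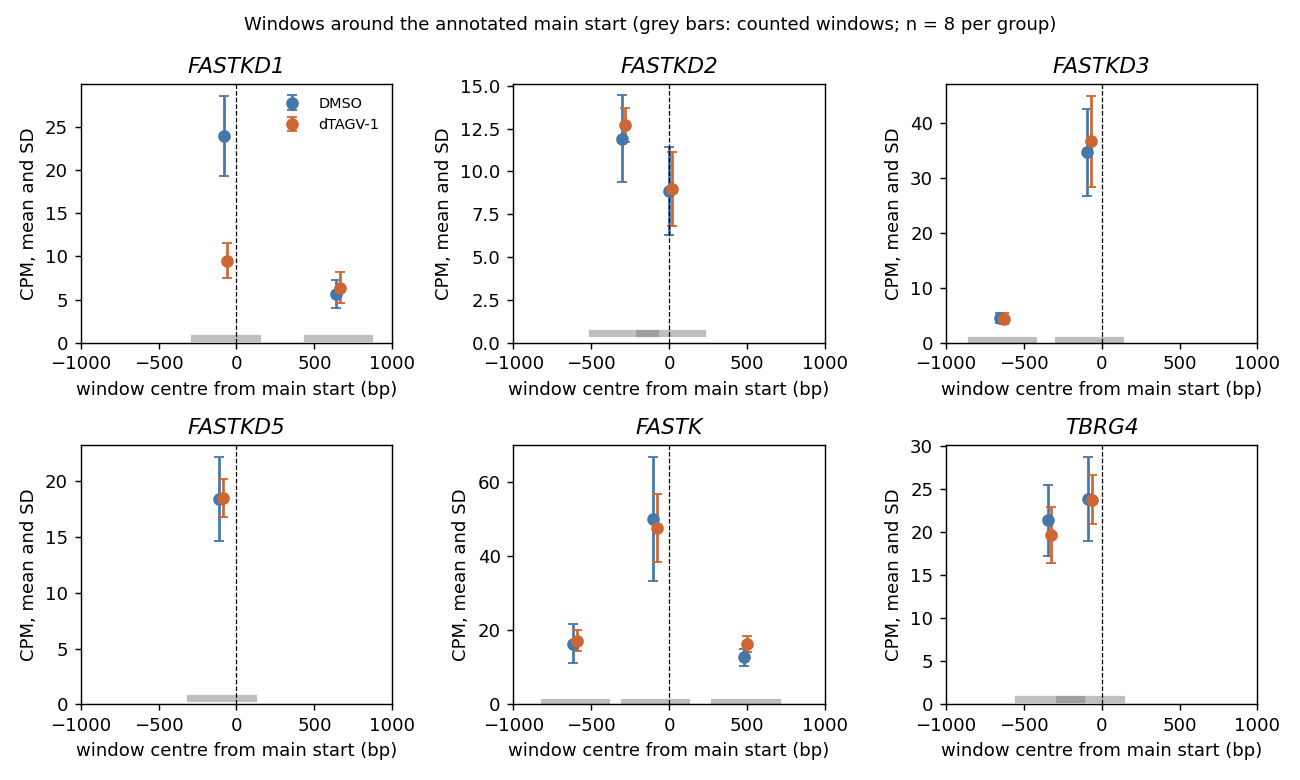
Mean CPM with SD (y axis) in DMSO and dTAGV-1 for each window, at the distance of its centre from the main annotated start of the gene in bp (x axis, negative is upstream), with the windows as grey bars. At the FASTKD1 window 71 bp upstream the means are 23.9 and 9.51, and in its downstream window they are 5.68 and 6.39. The inner FASTKD5 window, 7557 bp downstream, is outside the range drawn.

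The distance of 1000 bp chose the windows, and the members nearest to that limit were at 634 bp for FASTKD3 and 597 bp for FASTKD1. The nearest windows beyond it lay 2504 bp from a start of TBRG4, 2663 bp from FASTK, 2682 bp from FASTKD2, 3258 bp from FASTKD1 and 5757 bp from FASTKD3. Within 10000 bp no further window was counted at FASTKD5. Of these, the window beyond FASTK, chr7:151083329-151083729, which lies near a start of TMUB1, had 16.3 ± 4.32 CPM in DMSO and 11.2 ± 2.15 in dTAGV-1 (SD, n = 8). The fitted log2 change there was -0.54 (SE 0.15), with an adjusted p of 0.229 in edgeR. The other log2 fold changes were -0.13 near TBRG4, 0.01 near FASTKD2, -0.18 near FASTKD1 and 0.44 near FASTKD3.

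Levels in DMSO were ordered over windows of equal length. The DMSO values of FASTKD1 are part of the fold change that selected it, so its place in the order is a description, and only pairs of comparators are given with a test. FASTK came first with 5.49 ± 0.88 log2 CPM, then FASTKD3 with 5.08 ± 0.41, FASTKD1 with 4.56 ± 0.32, TBRG4 with 4.56 ± 0.36, FASTKD5 with 4.19 ± 0.34 and FASTKD2 with 3.56 ± 0.36 (SD, n = 8). Neighbours were compared by an exact sign-flip permutation test over the 8 libraries, two-sided, with Benjamini-Hochberg adjustment over all 5 neighbouring pairs. The same values set the order. The smallest p it can give with 8 libraries is 0.00781, and with 7 it is larger. TBRG4 was above FASTKD5 by 0.37 ± 0.13, and FASTKD5 above FASTKD2 by 0.63 ± 0.24, each in 8 of 8 libraries (exact permutation p = 0.00781, adjusted p = 0.013). FASTK was above FASTKD3 in 7 of 8 libraries, by 0.41 ± 0.52 (exact permutation p = 0.0703, adjusted p = 0.0879). The exception was the flat replicate 12, without which the difference was 0.59 (exact permutation test, adjusted p = 0.0195). Without that library TBRG4 over FASTKD5 and FASTKD5 over FASTKD2 had this same adjusted p, so it does not rank the pairs. FASTKD1 lay 0.52 ± 0.12 below FASTKD3, and it was above TBRG4 in 4 of 8 libraries.

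Genes whose promoter followed the main FASTKD1 window most closely over the 16 libraries were found by Pearson's correlation of log2 CPM, among 39985 tested windows within 1000 bp of a protein-coding start. The 5 highest were at STARD10 (r = 0.978), ZFP2 (r = 0.977), RBM41 (r = 0.974), ZNF225 (r = 0.974) and DCUN1D4 (r = 0.964). The median over all those windows was 0.144, and the main windows of the comparators had 0.078 to 0.291. These correlations share the 2 groups and the depth of each library, and are a description only. All 5 windows had negative log2 fold changes, from -0.85 at STARD10 to -1.35 at RBM41. That sign follows from how they were picked, since the loss at FASTKD1 is part of each correlation. For deviations from the group means, which still share the depth, r ran from 0.8 at DCUN1D4 to 0.913 at STARD10. The ZNF143 core lay in the STARD10 window, 2 half-site pairs in that of ZNF225, 1 in each of those of RBM41 and DCUN1D4, and neither in that of ZFP2.

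Other genes of mitochondrial RNA metabolism were taken from a list of 42 genes, of which 41 had 124 tested windows within 1000 bp of a start and MRM1 had none. Of these windows 1 was called lower and 0 higher by edgeR's quasi-likelihood test. That is 0.806% lower, against 0.492% lower and 0.00414% higher among all tested windows within 1000 bp of any start. At an unadjusted p of 0.05 there were 7. The median log2 fold change over the 41 main windows was 0.00, and 20 of them were negative. The share called in the list is near that background and is no result about the list.

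The 1 called window lay at chr2:86105410-86105810, downstream of a start of POLR1A, the gene of the largest subunit of RNA polymerase I. PTCD3, the gene of a protein of the small mitochondrial ribosomal subunit, starts farther away and is read in the opposite direction. The window had its centre 613 bp from the start of PTCD3 and 263 bp from that of POLR1A. It held neither the ZNF143 core nor a half-site pair within 200 bp of that centre. It measured 7.85 to 19.2 CPM in DMSO, with a median of 17.5, and 6.09 to 11.1 in dTAGV-1, with a median of 7.94. The groups met only through DMSO replicate 12, since the other DMSO libraries began at 14.6. The fitted change on the log2 scale was -1.0 (SE 0.15; edgeR adjusted p = 3.19e-05), and -1.07 without that library. The main window of PTCD3, 29 bp from its start, had a log2 fold change of -0.11 and was not called.

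By role, 4 genes cut the ends of mitochondrial transcripts, and none of their 10 windows was called. They include TRMT10C and PRORP, subunits of mitochondrial RNase P, with main-window log2 fold changes of -0.04 and -0.15. Of 11 genes for stability, polyadenylation and decay, such as LRPPRC (0.09), SLIRP (0.12) and the polynucleotide phosphorylase gene PNPT1 (0.00), none of 35 windows was called. The 15 measured genes for RNA granules and ribosomal RNA had 43 windows, of which 1 was called, the one near PTCD3. None of the 36 windows of 11 genes for transfer RNA modification was called, among them TRMU (0.04) and MTO1 (0.05). Since 0.492% of all tested windows within 1000 bp of any start were called lower, so few windows give no result about a role. The lowest main-window values of the list were -0.23 at REXO2 and -0.19 at NSUN4, and the highest were 0.27 at ANGEL2 and 0.12 at SLIRP. None of these passed the test.

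**Figure D5:**
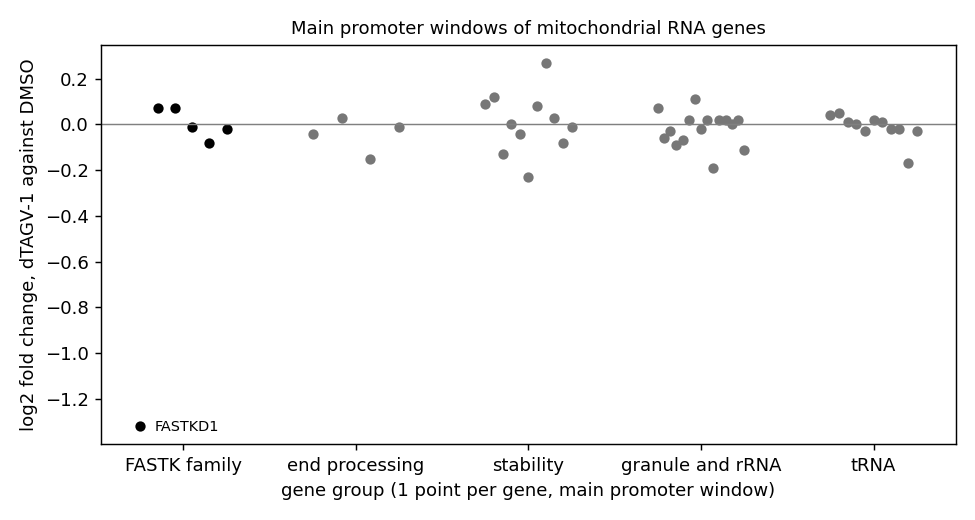
Log2 fold change of dTAGV-1 against DMSO in the main promoter window (y axis), with 1 point per gene for the FASTK family and for 4 groups of genes of mitochondrial RNA metabolism (x axis). FASTKD1 lies at -1.32, and the other genes lie between -0.23 and 0.27.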

How the data were processed

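ATAC-seq libraries of 1 HEK293T clone were grouped by their labels into 4 groups of 8. The count table covers replicates 9 to 16. The deposited counts are raw whole numbers for each window of 401 bp, as the values show, and 0 sample columns were left unused. Each window also has a -log10 q-value, and the summit list for replicates 1 to 8 gives a -log10 value too, both as deposited by the authors. The submitters' processing notes list cutadapt 1.8.1, Bowtie2 2.4.4, SAMtools 1.9 and hg38. The peak caller, the counting tool and any Tn5 shift are not given in the sources used here. All windows lay within hg38 chromosome ends.

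The quasi-likelihood test of edgeR 4.0.16, under R 4.3.3, was run on all windows after filterByExpr and TMM scaling, Benjamini-Hochberg adjusted over 185040 windows, with a threshold of 0.05 and no covariate. Log2 CPM used a prior count of 2. Standard errors came from the fitted statistic. Starts and annotations are from GENCODE 44, sequences from hg38 and RefSeq promoters, which held 5 of the 6 genes, without FASTKD5. The fit was tested on simulated data. Over 56 pairs of libraries of 1 group, the chi-square of counts per degree of freedom was at least 1.63, so all were kept.

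One listed marker of the line is not reported here. The members and lists were chosen with earlier results of these data known. All member windows are described; a gene's main window has the highest mean log2 CPM. Of the list, genes with a called window and the 2 lowest and 2 highest main windows are named, with examples of each role chosen after their values were seen. Alternatives were DESeq2 1.42.0, relative log expression factors, loess offsets, no filter, a replicate block, left-out libraries, 500 bp around starts, and a search within 100 bp.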

Additional observations from a re-analysis of the deposited data

Results flagged for a closer look

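A library was listed when its log2 CPM in a main window stood well away from the remaining 7 libraries, judged by the gap to the nearest one as a share of the whole range. Of 12 groups of 8 values, chance alone would pick out about 1 in 20, and 6 values were picked out, all from replicate 12. In DMSO, replicate 12 had 3.85 at FASTKD1, against 4.39 to 4.86 in the other 7 libraries. It had 2.72 at FASTKD2 against 3.52 to 3.93, 4.16 at FASTKD3 against 4.85 to 5.38, and 3.7 at TBRG4 against 4.44 to 4.78. The widest gap was at FASTK, where it had 3.32 against 5.67 to 5.94. In dTAGV-1, replicate 12 had 4.83 at FASTK against 5.42 to 5.81. The flat signal of these libraries, with 31.0% and 37.8% of counts in the top decile of windows, moves with these values, and its part in them was not tested.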

How the results depend on the processing

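The loss at the main FASTKD1 window ranged from -1.38 to -1.25 in log2 over 22 alternatives, and 1 member window was called lower and 0 higher in each of them. That 1 is the main FASTKD1 window, picked for its loss in these same libraries, so its repeated call is no test. No comparator window was called in any alternative. The lowest adjusted p among comparator windows was 0.231, at the FASTK window 177 bp from a start, in edgeR with the replicate block. Signs of values near 0 were not stable. Over fits that left out 1 library, the ranges were -0.04 to 0.09 for the FASTKD2 window 10 bp from a start, -0.01 to 0.14 and -0.15 to 0.01 for the FASTKD3 windows, -0.07 to 0.03 for the main FASTKD5 window, -0.06 to 0.1 for the outer FASTK window and -0.1 to 0.0 for the main TBRG4 window. Without replicates 11 and 12 of both groups the outer FASTK window was at -0.02. In DMSO without replicate 12, FASTKD1 minus TBRG4 was -0.02 and FASTK minus FASTKD3 was 0.59. In the mitochondrial RNA list, loess offsets called 2 windows lower, as did the replicate block with 2 (the PTCD3 window and 1 at PRORP). Without replicates 11 and 12 of both groups 3 were lower, adding DHX30, and 1 was higher, at ANGEL2. Within 500 bp of a start 0 were called, since the PTCD3 window is farther away. The cause of the other changes was not tested. Over all windows, the count of lower calls was 395, and 742 with the replicate block, 681 with loess offsets, 767 without replicates 11 and 12, 627 without DMSO replicate 12 and 504 by DESeq2. Same-numbered libraries correlated in their deviations from the group means by 0.0276 to 0.336, not always above 0.1. Of 8 DMSO libraries, 5 correlated best with their own number, so pairing by number remains possible. The main fit used no pairs, and the replicate block is the fit that does. With it the SE at the main FASTK window was 0.086, against 0.19 in the main fit. Low counts limit the inner FASTKD5 window most.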

Other observations

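The half-site pair found at FASTKD1 was looked for in all tested windows, a search chosen after the FASTKD1 sequence was seen and given as a description. At least 2 pairs lay in 52 tested windows, of which 24 were called lower by edgeR's quasi-likelihood test, or 46.2%, and 0 higher. The main FASTKD1 window, whose sequence set the letters, is among the 24. Over all tested windows 0.213% were called lower, and 0.492% of those within 1000 bp of any start. Exactly 1 pair lay in 782 windows, of which 214 were called lower, or 27.4%. The ZNF143 core lay within 200 bp of the centre in 2139 windows, of which 62 were called lower, or 2.90%. The core group shares windows with the pair groups. At least 2 pairs and the core lay together in 16 tested windows, of which 8 were called lower. The median log2 fold change was -0.57 with at least 2 pairs, -0.43 with 1 and -0.02 with the core. Among the 52 windows FASTKD1 had the 6th largest loss. Larger losses included windows near NOS3 at -2.09, which encodes an endothelial nitric oxide synthase, and near CNOT1 at -1.44, the scaffold of a deadenylase complex. Smaller ones, chosen after their values were seen, included windows near BANP at -0.88, RAB29 at -0.99 and VASP at -1.15.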
